A study of Rattus norvegicus with 12 samples.

Results

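The livers of 12 adult male Wistar rats were compared for the transcripts of 9 transport proteins that carry organic anions, conjugates and drugs across the hepatocyte membrane: Slco1a1, Slco1a4, Slco1b2, Slco2b1, Slc22a7, Slc22a8, Abcc2, Abcc3 and Abcc4. The genes were taken as a functional group, and every probe whose RefSeq accession belongs to one of them was read, which gave 13 probes of the 45598 on the array and all 9 genes of 16667 with a symbol. The control diet of 6 rats held 14% casein and the isocaloric low protein diet of the other 6 held 5%, each fed for 4 weeks. Each liver was read on its own single-colour microarray. The labels name no genetic change and no age beyond adult. They number the samples of each diet from 1 to 6, and each was taken as 1 rat; as they do not say outright that these were separate animals, p-values measure the spread between these samples. Liver tissue was homogenised without a sort, so fewer cells of a type and less RNA per cell cannot be told apart in any value below.

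Hepatocytes clear drugs, hormones, bilirubin and bile acids from portal blood in a sequence of steps. Organic anion transporting polypeptides (the Slco genes) and organic anion transporters (Slc22a7 and Slc22a8) take compounds up through the sinusoidal membrane, enzymes oxidise or conjugate them, and multidrug resistance-associated proteins (the Abcc genes) use ATP to pump the conjugates out. Abcc2 sits on the canalicular membrane and exports into bile, whereas Abcc3 and Abcc4 sit on the basolateral membrane and return conjugates to blood. Abcc3 is known for its low level in normal rat liver and for its rise in cholestasis.

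The genes Slco1b2, Slco1a4 and Slco1a1 follow each other on rat chromosome 4 in RefSeq (GRCr8), next to Slco1c1 on one side and Slco1a3, Slco1a6 and Slco1a5 on the other. The table of RefSeq promoters held 8 of the 9 transporters, all but Abcc3. The 250 bases before the start site of Slco1a1 (chr4:176681993-176682242, minus strand) and Slco1a4 (chr4:176495847-176496096, minus strand) are shown because these windows were the most alike of all pairs. They were identical at 179 of 266 aligned columns (67.3%), against 41.6% to 52.3% in the other 27 pairs.
Slco1a1: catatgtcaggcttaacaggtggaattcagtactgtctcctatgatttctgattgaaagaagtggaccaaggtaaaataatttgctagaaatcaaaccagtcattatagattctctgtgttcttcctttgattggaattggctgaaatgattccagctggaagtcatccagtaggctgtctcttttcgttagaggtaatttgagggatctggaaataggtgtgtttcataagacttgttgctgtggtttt
Slco1a4: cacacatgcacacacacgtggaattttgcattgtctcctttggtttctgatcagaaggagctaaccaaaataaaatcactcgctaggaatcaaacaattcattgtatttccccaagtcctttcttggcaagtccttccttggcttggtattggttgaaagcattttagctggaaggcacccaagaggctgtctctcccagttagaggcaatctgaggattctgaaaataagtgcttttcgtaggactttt

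The same windows of Slco1b2 (chr4:176282334-176282583, plus strand) and Abcc2 (chr1:252613625-252613874, plus strand) are shown because they were the 2 of the 8 that hold AGGTCA, the half-site that many nuclear receptors bind. This motif was searched on both strands and is present in 14.1% of 33465 RefSeq windows of this length. TATAAA (12.9%) was found in Slco1b2. The core of the antioxidant response element, TGACNNNGC (10.1%), was in none of the 8. Capitals mark matches on either strand, and a match describes letters only.
Slco1b2: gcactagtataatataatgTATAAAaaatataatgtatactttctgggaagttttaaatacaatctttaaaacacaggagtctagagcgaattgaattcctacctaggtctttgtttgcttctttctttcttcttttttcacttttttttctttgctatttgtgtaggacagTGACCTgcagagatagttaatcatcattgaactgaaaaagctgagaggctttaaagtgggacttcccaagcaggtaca
Abcc2: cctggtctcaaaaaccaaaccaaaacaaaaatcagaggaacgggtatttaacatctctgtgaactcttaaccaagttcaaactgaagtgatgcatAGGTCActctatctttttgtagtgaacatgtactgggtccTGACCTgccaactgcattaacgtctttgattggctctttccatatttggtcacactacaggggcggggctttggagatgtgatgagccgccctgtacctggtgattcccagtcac

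Each value is a log2 processed signal from which the array's own 75th percentile was subtracted, so 0 is the level of a spot at that percentile. They are compared between rats and not between probes. On the 12 arrays, 61.2% to 69.9% of spots were well above background. Arrays of the same diet correlated at 0.985 to 0.992 across genes, and arrays of different diets at 0.981 to 0.987. Slide 1 held 4 arrays of each diet and slide 2 held 2 of each, with a scan of its own. All 7 of 7 hepatocyte markers were measured, and 1 fell (3.05% of all genes), the apolipoprotein Apoa1 (-0.84 ± 0.14, limma adjusted p = 0.00387). Each of the 7 was lower by the mean, with a median difference of -0.15. At an unadjusted limma p under 0.05 there were 2 of 7, against 21.6% of all genes. The summed level of the list on the linear scale was 775 to 900.3 on the control and 659 to 853 on the low protein arrays. Albumin, Alb, was at -0.20 ± 0.07 (limma adjusted p = 0.114).

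No transporter gene passed the test for a diet difference. Of the 9 genes, 8 had a probe bright enough to test (Abcc3 did not), and 0 of these 8 had a limma p, adjusted by Benjamini-Hochberg over 21874 genes, under 0.05. Among all genes 6.53% passed. At an unadjusted p under 0.05 there were 0 of 8 transporters, against 21.6% of all genes. The values of the diets overlapped in all 8, whereas they did not overlap in 4.98% of all genes. At the level of single probes 0 of 12 passed (6.69% of all 25704 probes), and 1 of 12 had an unadjusted p under 0.05 (21.8% of all probes).

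The measured differences were small in both directions. Low protein livers were lower by the mean in 5 of the 8 genes and higher in 3, with a median log2 difference of -0.06, beside -0.03 over all genes. The median size without sign was 0.15, beside 0.14 over all genes. In 7 of the 8 genes the 95% interval lay within 1.5-fold either way, and the widest reached 1.61-fold, for Slc22a8. A p over the threshold does not show that the diets were alike, and these intervals give the changes that the data leave possible. Without scaling between arrays the median of all genes moved to 0.11. Slco1a1 and Slc22a7 then turned from -0.06 to 0.07 and from -0.06 to 0.08, and in the deposited values to 0.07 and 0.09.

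**Figure D1:**
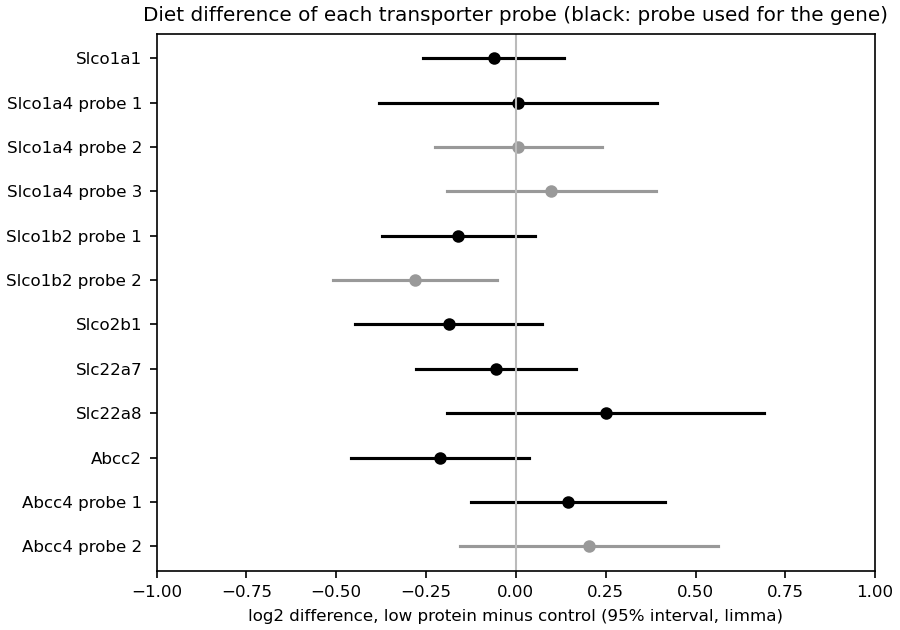
Log2 difference between low protein and control livers for the 12 transporter probes above background, with limma's 95% interval as a line; black marks the probe used for the gene and grey the further probes. The interval of Slco1b2 probe 2 lies below 0, from -0.51 to -0.05, and the other 11 intervals cross 0.

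Among the uptake carriers of the Slco1 cluster, Slco1a1 and Slco1a4 overlapped widely between the diets, and Slco1b2 did so less on one of its probes. Slco1a1, a carrier of bile acids and steroid conjugates, lay at 1.75 to 2.10 (median 1.85) in control and 1.62 to 1.96 (median 1.91) in low protein livers. Its difference was -0.06 ± 0.09 (SE, n = 6 rats per diet, limma adjusted p = 0.759), with an interval of -0.26 to 0.13. It was thus the most narrowly bounded of the 8, with at most a 1.20-fold change either way.

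Slco1a4, which carries bile acids, cardiac glycosides and other bulky drugs, was read by 3 probes. The brightest, probe 1, lay at 4.05 to 4.95 (median 4.19) in control and 3.92 to 4.77 (median 4.33) in low protein livers, and its difference was 0.01 ± 0.18 (adjusted p = 0.99, interval -0.38 to 0.39). Control rat 4 was the highest of all, and without it the difference was 0.14. Probes 2 and 3 differed by 0.01 (interval -0.23 to 0.24) and 0.10 (interval -0.19 to 0.39), so the 3 intervals all included 0.

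Slco1b2, the liver-specific carrier of statins, bilirubin conjugates and bile acids, was lower by the mean on both of its probes. Probe 1, used for the gene, lay at 2.47 to 2.98 (median 2.79) in control and 2.47 to 2.82 (median 2.59) in low protein livers, a difference of -0.16 ± 0.10 (adjusted p = 0.383, interval -0.37 to 0.05). Probe 2 lay at 2.09 to 2.79 (median 2.46) against 2.08 to 2.28 (median 2.18). Its 6 low protein values were all below 5 of the 6 control values, and control rat 1 was level with the lowest of them.

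That probe differed by -0.28 ± 0.11, with an unadjusted p of 0.0199 in limma and an adjusted p of 0.137 over all probes. Without control rat 1 it was at -0.36 and passed (limma adjusted p = 0.0386), while the probe used for the gene, at -0.22, did not (adjusted p = 0.197). In the deposited raw values probe 2 differed by -0.12 and probe 1, used for the gene, by 0.00.

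Slco2b1, a carrier of sulfated steroids and drugs with a wide tissue range, lay at -0.45 to 0.08 (median -0.30) in control and -0.83 to -0.23 (median -0.40) in low protein livers. The difference was -0.19 ± 0.12 (limma adjusted p = 0.41, interval -0.45 to 0.07). Low protein rat 4 was the lowest and control rat 1 the highest, and the difference was -0.11 without the former and -0.12 without the latter.

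**Figure D2:**
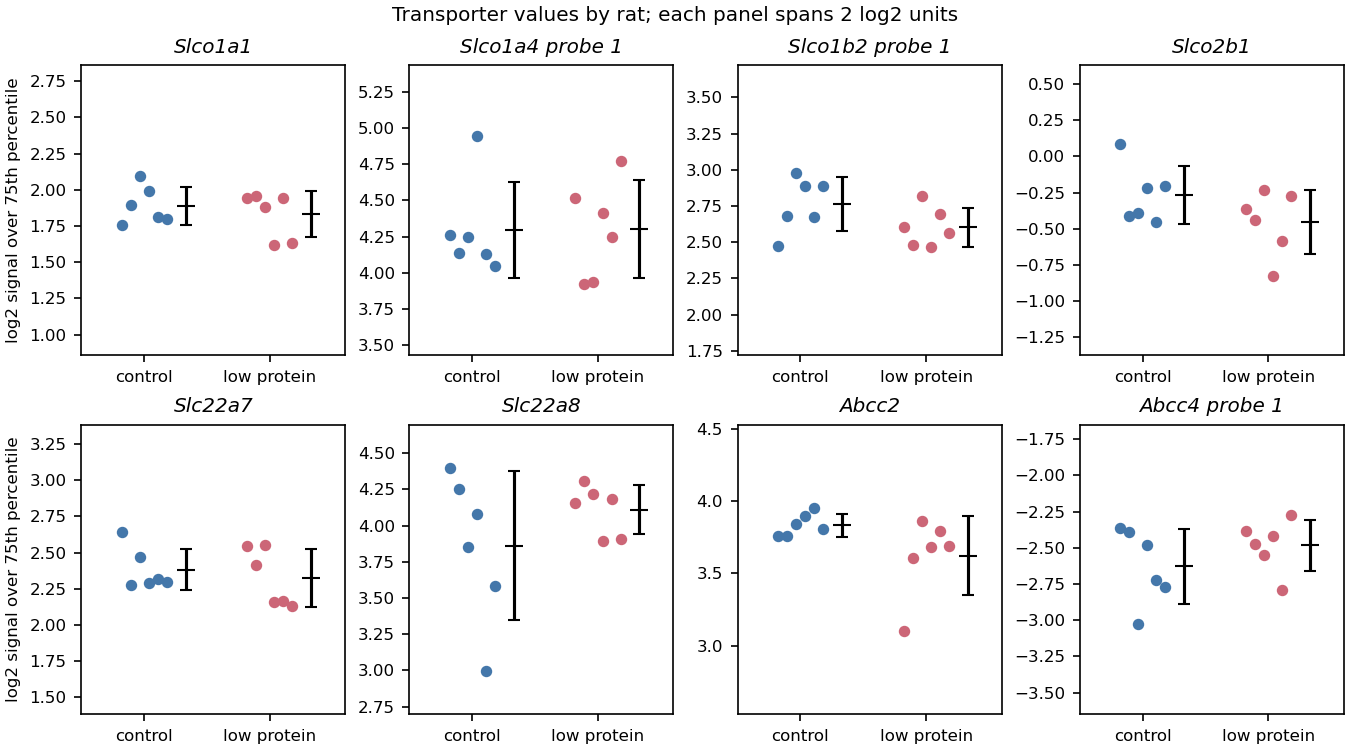
Log2 signal over the array's 75th percentile for each of 8 transporter genes, with 1 point per rat in replicate order, control in blue and low protein in red; the bar is the mean with its SD (n = 6 rats per diet), and each panel spans 2 log2 units. The diets overlap in every panel; control rat 5 is low for Slc22a8 (3.00) and low protein rat 1 for Abcc2 (3.1).

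The organic anion transporters of the Slc22 family exchange organic anions for dicarboxylates or other anions. Slc22a7 (OAT2), found mainly in liver and kidney, lay at 2.28 to 2.64 (median 2.31) in control and 2.13 to 2.55 (median 2.29) in low protein livers, with a difference of -0.06 ± 0.10 (adjusted p = 0.815, interval -0.28 to 0.17). Its values spread little in either diet, and at most a 1.21-fold change either way lies in the interval.

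Slc22a8 (OAT3), best known as a basolateral uptake carrier of the kidney, was bright in every liver. Control livers lay at 3.00 to 4.40 (median 3.97) and low protein livers at 3.89 to 4.31 (median 4.17). The control values thus spread over 1.40 log2 units and the low protein values over 0.42 (SD 0.51 and 0.17); whether the spreads differ was not tested. The difference was 0.25 ± 0.20 (limma adjusted p = 0.536, interval -0.19 to 0.69), and without control rat 5, the lowest, it was 0.08.

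Kidney tissue was looked for beside this gene. Slc34a1, a marker of the proximal tubule, was not well above background, and the summed level of the other 4 of 5 kidney markers was 0.15 to 0.205 in control and 0.15 to 0.197 in low protein livers. No kidney marker passed the diet test.

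Of the export pumps, Abcc2 (MRP2), which moves bilirubin and glutathione conjugates into bile, had the smallest p of the 8 genes (0.0892 in limma, unadjusted). Control livers lay close together at 3.76 to 3.95 (median 3.82). Low protein livers lay at 3.1 to 3.86 (median 3.69), and 4 of the 6 were below every control liver. The difference was -0.21 ± 0.11 (adjusted p = 0.317, interval -0.46 to 0.04). Without low protein rat 1, the lowest, it was -0.11 (adjusted p = 0.44).

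Abcc4 (MRP4), the basolateral pump of cyclic nucleotides, bile acids and nucleotide analogues, lay at -3.02 to -2.36 (median -2.60) in control and -2.79 to -2.27 (median -2.45) in low protein livers on probe 1. The difference was 0.15 ± 0.12 (limma adjusted p = 0.56, interval -0.13 to 0.42), or 0.07 without control rat 3. Probe 2 gave 0.20 (interval -0.15 to 0.56). On both probes the ranges of the diets overlapped over most of their length.

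Abcc3 (MRP3) was not well above background on 11 of the 12 arrays. Its processed signal was 1.51 to 2.87 intensity units in control livers. In low protein livers it was 1.93 to 6.08 in 5 rats and 13.3 in low protein rat 5, where alone it was well above background. On the log2 scale that rat was at -6.53, and the other 11 were at -9.42 to -7.67. The lowest value well above background on any array was between -8.60 and -7.38, so the others stood near or below what these arrays resolve, and no fold is given. Since 1 low protein array and no control array had it above background, it was left out of the fit, and its diet difference was not tested.

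The slides gave the same sign in 5 of the 8 genes. On slide 1 and slide 2 alone the differences were -0.01 and -0.16 for Slco1a1, -0.16 and -0.16 for Slco1b2, and -0.22 and -0.11 for Slco2b1. They were -0.01 and -0.14 for Slc22a7 and -0.27 and -0.08 for Abcc2. The signs differed in Slco1a4 (0.03 and -0.03), Slc22a8 (0.44 and -0.12) and Abcc4 (0.26 and -0.09). No transporter gene passed on either slide. With 4 rats per diet on slide 1 and 2 on slide 2, only 164 and 12 of 21874 genes did. The lack of a call among the 8 transporters on single slides thus says little.

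The probes of a gene were then set against each other across rats, after subtraction of each diet's mean. Probes 1 and 3 of Slco1a4 followed each other (Pearson r = 0.865, permutation p = 0.00014, adjusted over 5 pairs 7e-04; Spearman rho = 0.902, permutation p = 1e-04, adjusted 5e-04; n = 12). So did both probes of Abcc4 (r = 0.84, permutation p = 0.00075, adjusted 0.00187; rho = 0.867, permutation p = 0.00051, adjusted 0.00127). Both probes of Slco1b2 did too (r = 0.787, permutation p = 0.00192, adjusted 0.0032; rho = 0.727, permutation p = 0.00917, adjusted 0.0153). Without the 2 rats farthest from the median, r was 0.888, 0.798 and 0.501 in these pairs.

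Probe 2 of Slco1a4 stood apart. Against probe 1 it had r = 0.26 (permutation p = 0.414, adjusted 0.414) and rho = 0.315 (permutation p = 0.319, adjusted 0.319), with r = 0.537 without the 2 farthest rats. Against probe 3 it had r = 0.544 (permutation p = 0.0684, adjusted 0.0855) and rho = 0.51 (permutation p = 0.0943, adjusted 0.118), with r = 0.748. Low protein rat 6 shows the difference best, being the highest low protein rat on probe 1 (4.77) and the lowest on probe 2 (0.84). The order of the rats in Slco1a4 thus differed between probes, while the intervals of all 3 probes included 0. All 3 probes carry the same accession, and which transcripts each one binds was not tested.

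**Figure D3:**
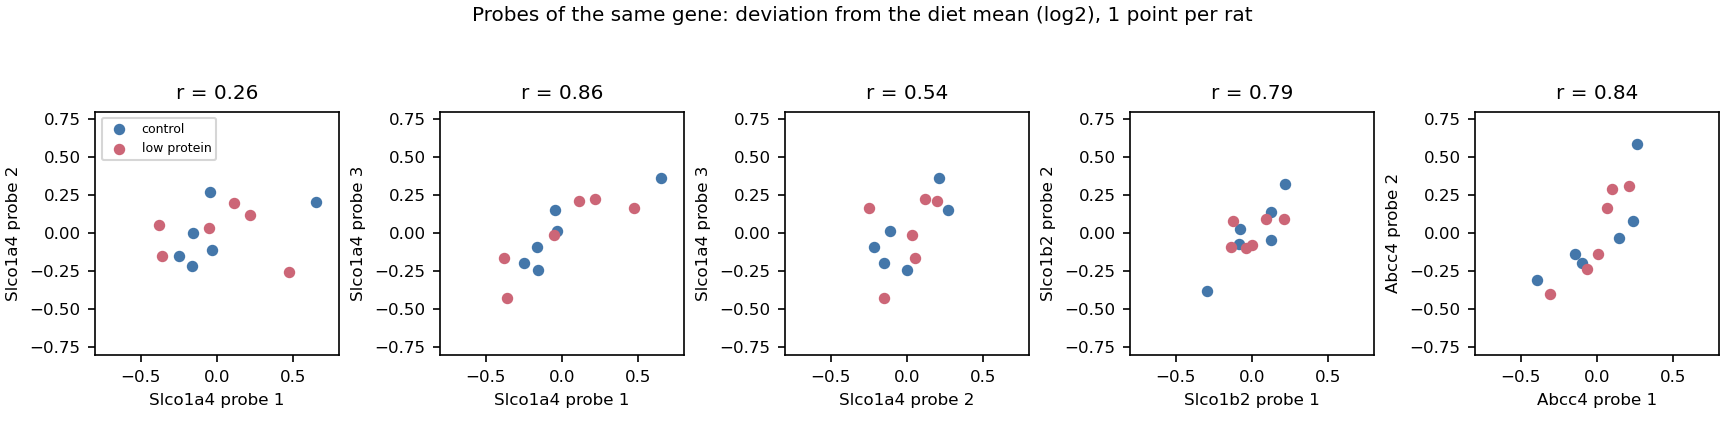
Deviation of each rat from its diet's mean (log2) on one probe against another probe of the same gene, with 1 point per rat (control blue, low protein red) and the same scale on every axis. The points follow a line for Slco1a4 probes 1 and 3 (r = 0.865) and Abcc4 (r = 0.84) and scatter for Slco1a4 probes 1 and 2 (r = 0.26).

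Genes were also ranked by Pearson correlation with probe 1 of Slco1a4, the transporter probe of the highest signal, over the 12 arrays, after subtraction of each diet's mean. The most alike among 11210 with a symbol were Ppa2 (r = 0.901), Mtfmt (r = 0.90) and Fam136a (r = 0.888). The ranking used probe 1 alone, to which probe 2 of the same gene had r = 0.26. These are the highest of many values and describe these 12 arrays.

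Most other transport proteins of the same families did not pass either. Of 15 measured SLCO and SLC22 genes, 0 rose and 1 fell, beside 3.48% higher and 3.05% lower among all genes, and the median difference was -0.02. The one that fell was Slco5a1 (-0.71 ± 0.13, limma adjusted p = 0.00731), whose function in liver is little known. Its 6 low protein values (-4.23 to -3.94) were all below the control values (-3.68 to -2.90), and its second probe gave -0.84. The call ended without scaling between arrays (-0.57, adjusted p = 0.102) and in the deposited values (-0.50, adjusted p = 0.062). Neighbours of the cluster, Slco1a5 and Slco1a6, were at 0.08 (interval -0.15 to 0.31) and -0.06 (interval -0.42 to 0.31).

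The list of other efflux pumps held 15 further genes, among them the channel subunits Abcc8 and Abcc9. Of these 15, 0 passed in limma and 3 had an unadjusted p under 0.05, a share near the 21.6% of all genes. Their median was -0.14. The 3 were Abcc6 (-0.27 ± 0.09, adjusted p = 0.103), the breast cancer resistance protein Abcg2 (-0.42 ± 0.16, adjusted p = 0.144) and Abcc10 (-0.29 ± 0.12, adjusted p = 0.178). The bile salt export pump Abcb11 was at 0.01 (interval -0.17 to 0.19).

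Among 13 other solute carriers 1 rose and 1 fell (3.48% and 3.05% of all genes), with a median of -0.01. Slc26a1, which exchanges sulfate and oxalate, rose by 1.37-fold (0.45 ± 0.09, limma adjusted p = 0.0113), and its 6 low protein values (3.84 to 4.11) were all above the control values (3.26 to 3.76). Slc29a1, an equilibrative nucleoside transporter, fell (-0.53 ± 0.13, adjusted p = 0.035; -0.35 on slide 1 and -0.90 on slide 2). This call was lost, at adjusted p 0.051 to 0.0735, without any 1 of control rats 1 to 4 or low protein rats 2 to 6, and also without scaling (-0.40, adjusted p = 0.133) and in the deposited values (-0.40, adjusted p = 0.0991). The bile acid uptake carrier Slc10a1 was at 0.03 (interval -0.18 to 0.25).

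**Figure D4:**
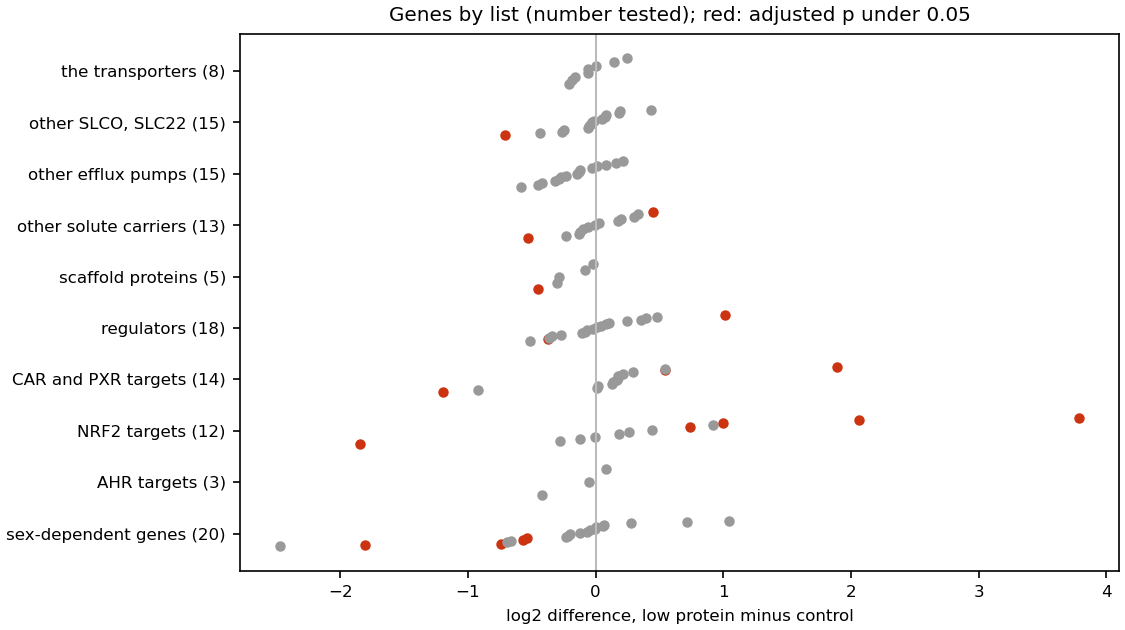
Log2 difference, low protein minus control, of each gene tested, by list, with the number tested in brackets; red points passed limma's adjusted p of 0.05 and grey points did not. The 8 transporters lie between -0.21 and 0.25, and none is red.

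Scaffold proteins hold several of these carriers in the membrane. Of 5 measured 1 fell (3.05% of all genes), Msn (-0.45 ± 0.12, limma adjusted p = 0.0492). Msn was dim, with means of -6.02 in control and -6.48 in low protein livers, and was well above background on 5 of 6 low protein arrays. The call was lost without any 1 of control rats 1 to 4 or low protein rats 1, 2, 3, 5 and 6 (adjusted p 0.0609 to 0.105). The call also ended in the deposited values (-0.10, adjusted p = 0.638), without scaling (-0.32, adjusted p = 0.331), after another background correction, normexp (-0.19, adjusted p = 0.155), with limma's trend and robust options (adjusted p = 0.0995) and with the slide as a block (adjusted p = 0.056). Radixin, Rdx, which anchors Abcc2 at the canaliculus, was at -0.08 (interval -0.26 to 0.10), and Pdzk1, which binds Slco1a1, at -0.30 ± 0.14 (adjusted p = 0.244).

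Of 18 nuclear receptors and other factors known to act on transporter genes, 1 rose and 1 fell (3.48% and 3.05% of all genes), with a median near 0 (-0.0049). Nr1i3, the constitutive androstane receptor, which answers to drugs and raises Abcc2 and Abcc3 when activated, lay at -0.63 to 0.27 in control and 0.27 to 1.19 in low protein livers. Only low protein rat 3 overlapped with a control rat. The rise was 2.02-fold (1.01 ± 0.20, limma adjusted p = 0.0101; 1.05 on slide 1 and 0.93 on slide 2), and the second probe gave 0.94. In the same livers Abcc2 was at -0.21, and neither activation of the receptor nor a link between the 2 was tested. The pregnane X receptor Nr1i2, a known regulator of Slco1a4, was at 0.04 (interval -0.34 to 0.43) and Hnf4a at 0.09 (interval -0.15 to 0.32). Nr5a2, a receptor of bile acid and sterol genes, fell (-0.38 ± 0.10, limma adjusted p = 0.0406). This call was lost without any 1 of control rats 2 to 6 or low protein rats 1 to 5 (adjusted p 0.061 to 0.0809). It was also lost in 6 other alternatives (adjusted p 0.0557 to 0.731), among them quantile normalization (0.0557) and no scaling (0.463).

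Of 14 classical targets of the constitutive androstane and pregnane X receptors, 2 rose and 1 fell (3.48% and 3.05% of all genes), with a median of 0.17. The retinal dehydrogenase Aldh1a1 rose by 3.71-fold (1.89 ± 0.34, limma adjusted p = 0.00677), with all 6 low protein livers (3.37 to 4.58) above all control livers (1.36 to 3.33). Cyp3a2, a male-predominant drug oxidase, rose by 1.46-fold (0.54 ± 0.13, adjusted p = 0.031), and Cyp3a9 fell (-1.20 ± 0.28, adjusted p = 0.0271). The Cyp3a2 call was lost without any 1 of control rats 2 to 6 or low protein rats 1, 2, 4 and 5 (adjusted p 0.0517 to 0.0634). That of Cyp3a9 was lost without any 1 of control rats 1, 3 and 4 or low protein rats 2, 4 and 5 (0.0505 to 0.0582). Cyp2b2, the best known target of the constitutive androstane receptor, was at 0.30 ± 0.10 (adjusted p = 0.116). Paralogous Cyp genes can share probe targets, which was not tested.

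**Figure D5:**
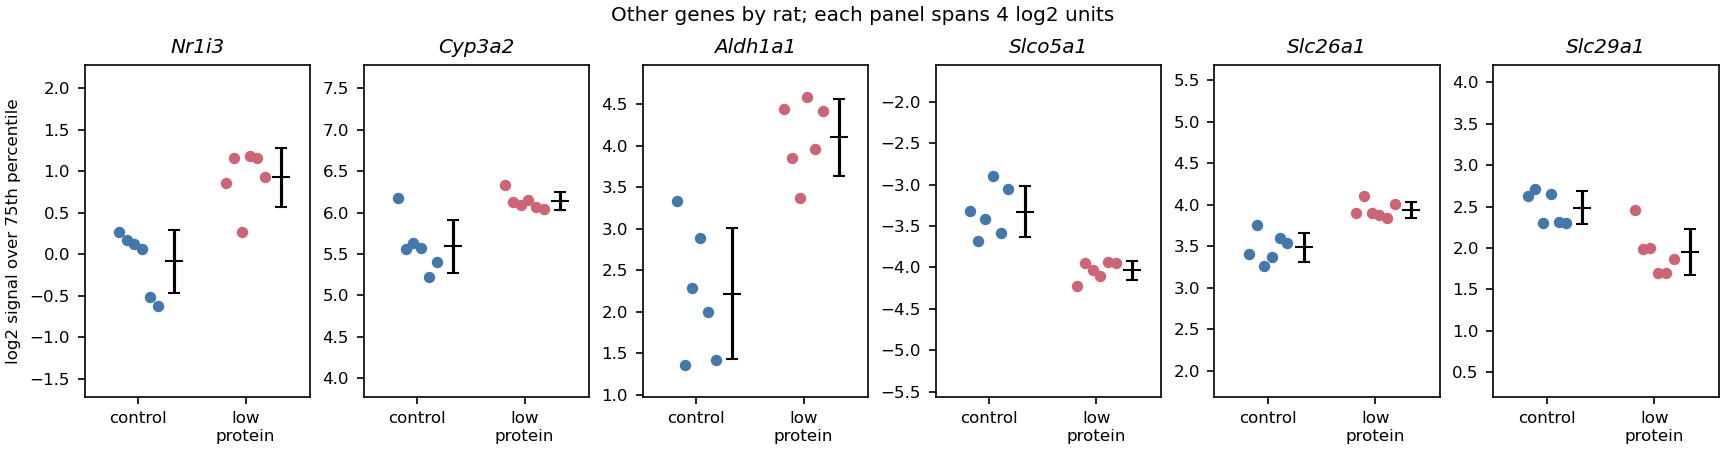
Log2 signal over the array's 75th percentile, with 1 point per rat (control blue, low protein red) and the mean with its SD (n = 6 rats per diet), for the receptor Nr1i3, for Cyp3a2 and Aldh1a1, and for the carriers Slco5a1, Slc26a1 and Slc29a1; each panel spans 4 log2 units. Nr1i3, Cyp3a2, Aldh1a1 and Slc26a1 are higher and Slco5a1 and Slc29a1 lower in low protein livers.

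Markers of other cell types are given beside these values, and their part in them was not tested. None of the markers of cholangiocytes (6 of 6 measured), Kupffer cells (7 of 7), stellate cells (7 of 7), endothelial cells (6 of 7), lymphocytes (4 of 7), neutrophils (2 of 5) or red cells (4 of 5) passed in limma. At an unadjusted p under 0.05, which 21.6% of all genes had, there were 5 of 7 Kupffer cell markers, all lower. There were also 2 of cholangiocytes (Epcam and Cftr), 1 of stellate cells (Pdgfrb) and 1 of endothelial cells (Cdh5), all lower. Of neutrophils there was 1 (S100a8, 0.34 ± 0.15), which was higher, and of lymphocytes or red cells none. Cftr passed the filter on dim probes only through the control arrays, being well above background on 6 of these and on 3 low protein arrays. Low protein values of Cftr at outlier spots were dropped, also from the summed level. The summed level of the Kupffer cell markers was 16.3 to 32.6 in control and 16.3 to 22.9 in low protein livers. Sums for the others in control and low protein livers were 0.256 to 0.434 and 0.207 to 0.341 for cholangiocytes, 15.1 to 18.4 and 16.2 to 17.7 for endothelial cells, 3.20 to 4.03 and 2.97 to 4.00 for stellate cells. They were 0.286 to 0.472 and 0.312 to 0.515 for lymphocytes, 0.0848 to 0.192 and 0.15 to 0.19 for neutrophils, and 6.87 to 18.1 and 7.59 to 17.99 for red cells. The lymphocyte markers Cd3e and Cd79b and the neutrophil markers Elane and Ngp were not well above background. Of 4 measured intestinal markers 1 fell (3.05% of all genes), Fabp2 (-1.11 ± 0.30, limma adjusted p = 0.0477), for which no alternative was run. Slc10a2 (-0.23), Cdx2 (-0.13) and Lct (-0.02) did not pass, and Vil1 was not above background. Pericentral hepatocytes are known to hold more Slco1a4 and Slco1b2. Of their 8 measured markers 1 fell (3.05% of all genes), Oat (-2.18 ± 0.26, limma adjusted p = 0.000545). The summed level of these markers, Oat included, was 83.8 to 123 in control and 64.4 to 105 in low protein livers. Rhbg (0.56 ± 0.19, limma adjusted p = 0.106), Glul (0.31) and Cyp2e1 (0.08) were higher by the mean. Cyp1a2 (-0.42), Gulo (-0.27), Slc1a2 (-0.21) and Axin2 (-0.08) were lower, and none of these passed. Of 9 periportal markers 4 fell (3.05% of all genes), Sds (-5.19), Gls2 (-0.79), Cps1 (-0.68) and Hal (-0.50). Pck1 (-0.81), Cdh1 (-0.61), Arg1 (-0.14) and Ctsc (-0.09) were lower by the mean and did not pass. Hsd17b13 was higher and did not pass (0.30 ± 0.09, limma adjusted p = 0.085). The periportal sums were 164 to 224 in control and 138 to 157 in low protein livers.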

How the data were processed

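RNA of 12 livers was labelled with Cy3 and read on Agilent arrays. Per the file headers, the authors ran Agilent Feature Extraction 12.0.3.1, and the deposited scanner files hold background-subtracted processed intensity and raw median intensity, not scaled between arrays. The deposited value table equals the median intensity at 100% of spots. The other columns used are 0 or 1 marks of the same software, as deposited. The headers name another build than RefSeq's GRCr8, which served for names and promoters only.

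The 75th percentile of log2 processed signal (58717 spots) was subtracted within each array, outlier spots (453 to 739 per array) were dropped, and spots of a probe were averaged. A probe was kept where 5 or more of the 6 arrays of either diet had it well above background, and the brightest probe stood for its gene. Of 45598 probes 46.5% matched a symbol. Differences were fitted with limma 3.58.1 in R 4.3.3 over all genes, and again over all probes, with Benjamini-Hochberg adjustment and a threshold of 0.05; the script was tested on simulated data. Correlations used 100000 permutations, two-sided. Figures used matplotlib 3.10.9. The number of arrays limits the precision, with a median SE of 0.13.

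The transporters and gene lists were chosen with earlier results of these data known. Named are all transporters and, per list, up to 4 genes past the threshold or else the one with the smallest p; others with values were chosen after these were seen, as were the motifs. Nothing in the labels says that a rat number links the diets. Alternatives covered background correction, scaling, deposited values, filters, outlier marks, probes per gene, spread estimate, slide, rat number and each rat left out. Metabolite and PCR data were not analysed here. Some single-gene results are not reported here.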

Additional observations from a re-analysis of the deposited data

Results flagged for a closer look

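In 8 of 62 sets of 6 rats, 1 rat lay far from the other 5 of its diet, by a gap over 0.625 of the whole range (Dixon's 95% critical value); chance flags about 1 in 20 sets. Among the transporters, Slco1a4 probe 1 was at 4.95 in control rat 4, with the next control rat at 4.26, and probe 3 was also highest in this rat (1.25). Abcc2 was at 3.1 in low protein rat 1, with the next at 3.61. Among the other genes, low protein rat 1 was also the highest of its diet for Cyp2c12 (1.32, next -0.42) and Cyp3a2 (6.34, next 6.15). Low protein rat 2 was highest for Slc7a11 (-1.34, next -2.71), low protein rat 3 lowest for Nr1i3 (0.27, next 0.85), control rat 1 highest for Akr7a3 (2.28, next 1.20) and control rat 3 lowest for Cyp2a1 (2.57, next 2.72).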

How the results depend on the processing

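The count of transporter genes past the threshold was 0 under all 25 alternatives. For probes it was 0 in 23 of 24 and ranged from 0 to 1 with each rat left out, the 1 being Slco1b2 probe 2 without control rat 1. Among all genes 1429 passed, against 891 without scaling, 618 without the filter on dim probes, 164 on slide 1 and 12 on slide 2 alone, and 856 (without control rat 3) to 1307 with each rat left out. Higher calls were 53.3% of these, 76.2% without scaling and 81.1% in the deposited values. The sign of Abcc2 and Slco2b1 held in all alternatives; that of Slco1a4, near 0, turned in 10. Within single slides the calls of single genes were mostly lost, with fewer rats fitted. Without the filter on dim probes those of Slc29a1, Msn, Nr5a2, Cyp3a2, Cyp3a9 and Cyp2c12 were lost. Rat numbers were checked as pairs: same-numbered rats deviated together at r = 0.034 to 0.26, over 0.1 in 5 of 6 pairs; as pairing was accepted only with every pair over 0.1, they were not taken as paired; 4 of 12 rats correlated best with their own number in the other diet. With the replicate block 1411 genes and 0 transporters passed, and Cyp2c12 was lost (adjusted p = 0.0782). Small differences in Abcc3 cannot be seen at its signal.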

Other observations

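Targets of NRF2, the factor of the antioxidant response, held larger changes than the transporters. NRF2 is also known to raise Abcc2, Abcc3 and Abcc4, and a link was not tested here. Of 12 targets measured, 4 rose and 1 fell (3.48% and 3.05% of all genes), with a median log2 difference of 0.35. One of the 4, Slc7a11, passed the filter on dim probes only through the low protein arrays. The aflatoxin aldehyde reductase Akr7a3 rose by 4.17-fold (2.06 ± 0.35, SE, n = 6 rats per diet, limma adjusted p = 0.00514). Gclm, a subunit of the first enzyme of glutathione synthesis, rose (1.00 ± 0.15, adjusted p = 0.00273; 0.68 after normexp). The cystine carrier Slc7a11, which is also a target of ATF4, was well above background on 3 of 6 control arrays and on all 6 low protein arrays. It lay at -7.53 to -5.44 in control and -3.51 to -1.34 in low protein livers. The size of its difference is not well measured, being 3.78 here and 1.34 after normexp. Nqo1, a classical target, was at -0.12 ± 0.21 (adjusted p = 0.797). The NRF2 gene itself, Nfe2l2, was at 0.01 (interval -0.51 to 0.53). Of 3 measured targets of the aryl hydrocarbon receptor 0 passed in limma (6.53% of all genes). On the brightest probe of each, 0 had an unadjusted p under 0.05 (21.6% of all genes). Cyp1a2 was at -0.42 ± 0.21 (adjusted p = 0.276). Its second probe gave -0.54 (limma unadjusted p = 0.0396, adjusted p = 0.20 over all probes).

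Genes with sex-dependent expression under growth hormone, a hormone that also acts on Slco1a1, were lower or did not pass. Of 20 measured, 4 fell and 0 rose (3.05% and 3.48% of all genes), with a median of -0.16. Cyp2a2, a male-specific steroid oxidase of the rat, fell by 0.74 ± 0.07 on the log2 scale (limma adjusted p = 8.05e-05), from 3.44 ± 0.06 to 2.69 ± 0.11 (SD, n = 6 rats per diet). Cyp2a1, which is higher in females, fell too (-0.54 ± 0.07, adjusted p = 0.00113), as did Cyp2c7 (-0.57 ± 0.12, adjusted p = 0.0156), also higher in females. Without scaling the calls of Cyp2a1 (-0.40, adjusted p = 0.0614) and Cyp2c7 (-0.44, adjusted p = 0.0703) were lost. The female-specific Cyp2c12 fell (-1.80 ± 0.45, adjusted p = 0.0325), a call lost without any 1 of control rats 4 and 5 or low protein rats 2 to 6 (adjusted p 0.0571 to 0.0673). Its second probe gave -1.78 and did not pass (limma adjusted p = 0.0527 over all probes). The male-specific Cyp2c11 was at -0.23 ± 0.10 (adjusted p = 0.194) and Cyp2c13 at 0.28 ± 0.12 (adjusted p = 0.215). These lists were chosen with earlier results of these data known.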
